A study of Rattus norvegicus with 6 samples.

Results

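The genes described here build the membrane skeleton of the axon and the node of Ranvier: the ankyrins Ank2 and Ank3, the spectrins Sptan1, Sptbn1 and Sptbn4, and the adhesion molecules Cntn1, Cntnap1, Cntnap2, Nfasc and Nrcam. They were chosen as partners of Ank2, which the paper lists among its potential super-enhancer genes. That list joined these libraries with the paper's ChIP-seq of a histone mark of active enhancers, which is not analysed here. The genes were matched by symbol, and 9 of the 10 were found among the 22050 genes of the expression table. No row carries the symbol Cntnap2, which is not analysed here. All 9 passed the filter on low counts, which 14426 genes passed. RNA of the spinal cord was sequenced from 3 sham rats (Sham) and 3 rats with neuropathic pain after spared nerve injury (SNI-NP), an injury that cuts off parts of the sciatic nerve and leaves its sural branch whole. All were adult male Sprague–Dawley rats, and the control animals had sham surgery. The time between surgery and RNA sampling, and the level of the cord, are not given in the sources used here. The labels do not say that each library came from its own animal, so p-values measure only the spread between these libraries.

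As background, ankyrins are adaptor proteins that tie membrane proteins to the spectrin lattice under the membrane. In myelinated axons, ankyrin-G, the product of Ank3, gathers sodium channels together with beta-IV spectrin, the product of Sptbn4, at the node and at the axon initial segment. On either side of the node, contactin 1 and Caspr, the products of Cntn1 and Cntnap1, bind the glial form of neurofascin, the product of Nfasc, in the paranodal junction, while the neuronal form of neurofascin and NrCAM, the product of Nrcam, stand at the node itself.

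The libraries held 16670760 to 17107621 estimated counts in the Sham group and 17432148 to 18151156 in the SNI-NP group, and a gene with 0 counts could still lie at 0.167 to 0.18 CPM by counting error alone, where CPM are counts put on the same scale in every library. The 10 genes with most counts took 16.4% to 20.0% of a library. The labels call the tissue spinal cord. Genes that mark oligodendrocytes and central myelin were detected at a summed level of 30927 to 42483 CPM over the 6 libraries, and genes that mark Schwann cells and peripheral myelin, which belong to nerve roots and nerves, at 77397 to 119077 CPM. Genes that mark dorsal root ganglion neurons were detected too, at a summed level of 764 to 1589 CPM in the Sham group and 244 to 2244 CPM in the SNI-NP group. The 244 CPM belonged to SNI-NP 1, which also had the lowest summed level of 4 neurofilament genes, 2408 CPM against 5054 to 8524 CPM in the other libraries, and the highest of 9 erythroid genes, 5127 CPM against 979 to 2644 CPM. Because the tissue was taken in bulk, fewer cells of a type and less RNA per cell cannot be told apart.

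The promoters of 7 of the 9 genes were matched in RefSeq (build GRCr8) as windows of 300 bases, 250 before to 50 after the start. Those of Ank2 and Cntn1 are shown because these genes were called lower in SNI-NP rats, and those of Sptan1 and Sptbn1 because these spectrins had the highest levels and were not called. Capitals mark GGGCGG, the core of a GC box, searched on both strands, where it reads CCGCCC on the other strand.
Ank2 (chr2:218628365-218628664, minus strand): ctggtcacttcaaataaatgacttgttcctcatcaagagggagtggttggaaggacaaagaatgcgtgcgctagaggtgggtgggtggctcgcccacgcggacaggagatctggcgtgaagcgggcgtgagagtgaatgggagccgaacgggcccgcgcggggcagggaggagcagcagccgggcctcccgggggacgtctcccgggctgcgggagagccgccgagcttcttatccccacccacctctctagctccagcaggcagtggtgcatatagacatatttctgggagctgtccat
Cntn1 (chr7:125252060-125252359, plus strand): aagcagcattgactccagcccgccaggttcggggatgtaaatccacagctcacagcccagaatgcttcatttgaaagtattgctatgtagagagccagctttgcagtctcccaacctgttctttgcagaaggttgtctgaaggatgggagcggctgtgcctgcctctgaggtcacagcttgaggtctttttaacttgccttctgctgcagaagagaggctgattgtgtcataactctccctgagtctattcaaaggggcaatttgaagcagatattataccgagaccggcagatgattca
Sptan1 (chr3:33638819-33639118, plus strand): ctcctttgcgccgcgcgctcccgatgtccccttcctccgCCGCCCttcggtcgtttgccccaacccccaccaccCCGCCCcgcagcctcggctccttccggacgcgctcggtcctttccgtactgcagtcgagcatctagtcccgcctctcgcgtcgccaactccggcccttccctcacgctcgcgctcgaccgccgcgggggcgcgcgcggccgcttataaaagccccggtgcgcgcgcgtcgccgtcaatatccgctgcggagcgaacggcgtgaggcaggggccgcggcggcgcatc
Sptbn1 (chr14:108217787-108218086, minus strand): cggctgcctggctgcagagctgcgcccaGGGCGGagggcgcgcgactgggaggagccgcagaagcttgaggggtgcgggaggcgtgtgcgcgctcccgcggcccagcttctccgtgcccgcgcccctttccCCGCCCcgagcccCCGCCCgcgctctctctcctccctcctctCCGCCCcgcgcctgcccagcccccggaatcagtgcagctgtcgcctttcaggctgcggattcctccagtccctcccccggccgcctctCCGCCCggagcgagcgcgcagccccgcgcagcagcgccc

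The motif was found in the windows of the 3 spectrins, with 2 matches for Sptan1, 5 for Sptbn1 and 2 for Sptbn4, and it was absent from the windows of Ank2, Ank3, Cntn1 and Nfasc. Of all 33469 promoters in the table, 33.1% held it. The spectrin windows were also rich in CG dinucleotides, with 51 in Sptan1, 45 in Sptbn4 and 37 in Sptbn1, against 20 in Ank2, 7 in Ank3, 5 in Cntn1 and a median of 7 over all promoters. Their GC content was 73.0% to 77.0%, against a median of 51.7% over all promoters. These letters describe the windows only.

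The comparison of SNI-NP with sham rats asks which genes of the spinal cord change in neuropathic pain. Of the 9 genes, Ank2 and Cntn1 were lower in SNI-NP rats by the rule used here, a change of 1.2 times or more with p below 0.05 before adjustment in edgeR's quasi-likelihood test, and none was higher. By the same rule 851 of the 14426 tested genes were lower, or 5.9%, and 655 were higher, or 4.54%. After Benjamini-Hochberg adjustment over all tested genes no gene passed an adjusted p of 0.05 with edgeR, which is 0%, although 1565 genes had an unadjusted p below 0.05 and DESeq2 called 194 genes. The smallest adjusted p with edgeR was 0.116. The log2 fold change was negative for 8 of the 9 genes, with a median of -0.18 against 0.01 over all tested genes.

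**Figure D1:**
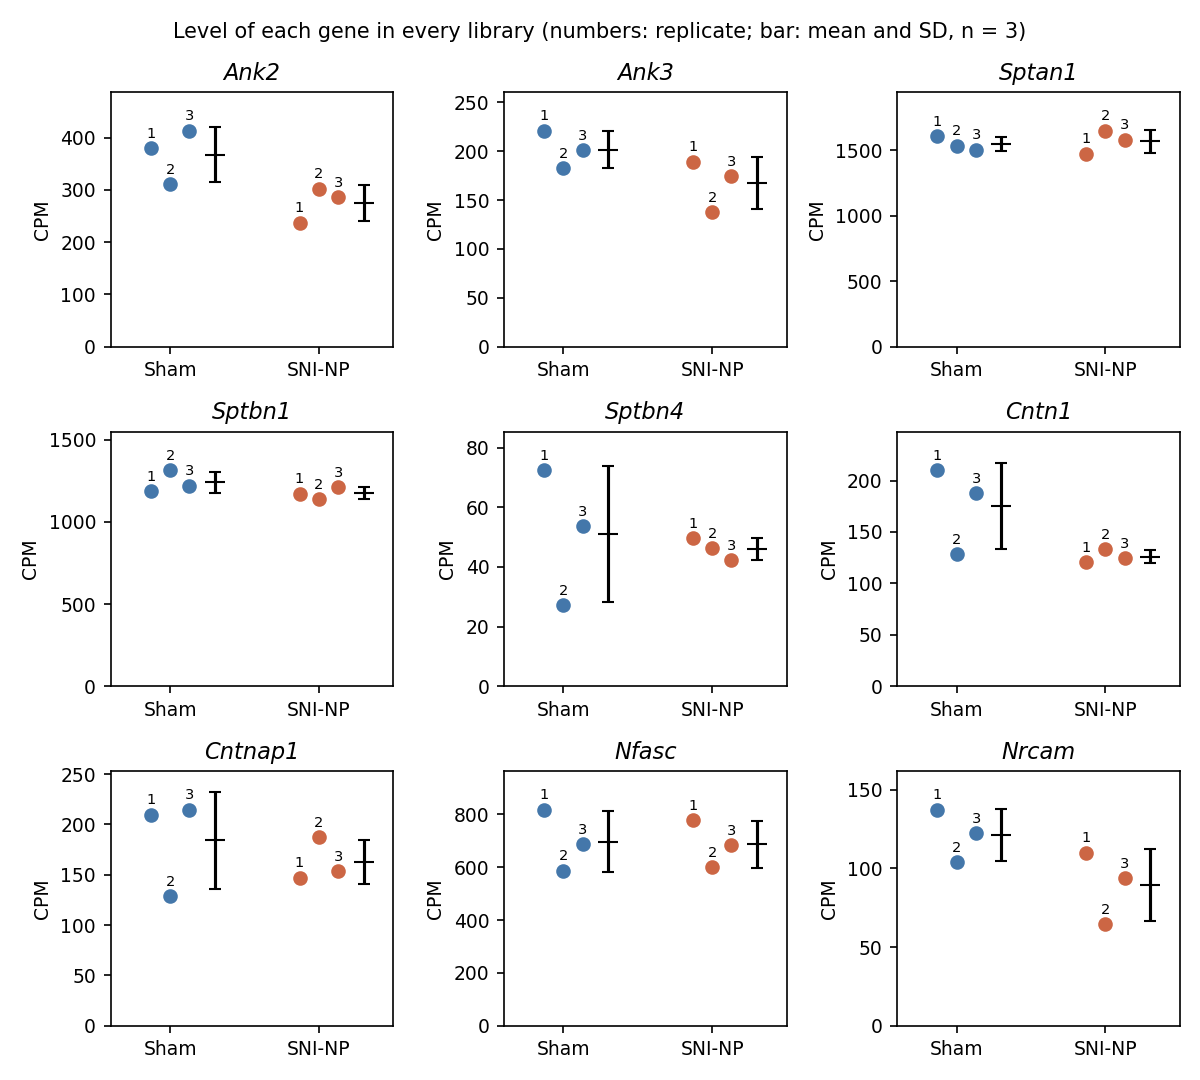
CPM of each of the 9 genes (vertical axis, from 0) in the 3 Sham and 3 SNI-NP libraries, each point numbered by its replicate, with bars for the mean and SD (n = 3). The 3 SNI-NP libraries of Ank2 lie below all 3 Sham libraries, while the groups of the other 8 genes overlap.

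Ank2 (ENSRNOG00000011076) encodes ankyrin-B, which lies under the membrane along the axon and helps to sort its cargo. Its level was 379, 310.2 and 413 CPM in the Sham libraries and 237, 302 and 286 CPM in the SNI-NP libraries. The 3 SNI-NP libraries lay below the 3 Sham libraries, the closest pair being Sham 2 and SNI-NP 2. The mean was 367 ± 52.3 CPM (SD, n = 3) in sham rats and 275 ± 33.8 CPM (SD, n = 3) in SNI-NP rats. The log2 fold change was -0.42 ± 0.15 (SE), with a 95% interval of -0.76 to -0.08, an unadjusted p of 0.0231 and an adjusted p = 0.436 in edgeR. Genes whose SNI-NP libraries all lay below the Sham libraries made up 8.15% of the tested genes, and those with all SNI-NP libraries above made up 10.4%. An exact two-sided permutation test of the CPM values gave p = 0.1, the smallest value that 3 libraries against 3 allow. Any full separation gives this value, so the test adds nothing to the separation. The study took up Ank2 by joining these same libraries with its enhancer ChIP-seq, so the position of Ank2 here is no independent evidence of its direction. The paper also measured Ank2 by quantitative PCR, and did not name it among the candidates whose change matched the sequencing. With offsets for gene length the log2 fold change of Ank2 was -0.26 and its unadjusted p 0.195 in edgeR, and the call was also lost without Sham 1, Sham 3 or SNI-NP 1.

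Ank3 stood at 221, 183 and 201 CPM in the Sham libraries and at 189, 138 and 175 CPM in the SNI-NP libraries. SNI-NP 2 was the lowest library and SNI-NP 1 lay above Sham 2, so the groups overlapped. Its log2 fold change was -0.27 ± 0.14 (SE), with a 95% interval of -0.61 to 0.07 and an adjusted p = 0.513 in edgeR. Without SNI-NP 1 its log2 fold change was -0.37 and passed the rule. Ank1, the third ankyrin gene, stood at a log2 fold change of -0.17 (adjusted p = 0.805 in edgeR).

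The spectrins, which form long rods of paired alpha and beta subunits beneath the membrane, were not called in either direction. Sptan1 encodes alpha-II spectrin, the alpha subunit outside red cells. It stood at 1608, 1535 and 1505 CPM in the Sham libraries and at 1475, 1648 and 1581 CPM in the SNI-NP libraries. Both the lowest and the highest library were SNI-NP libraries. Its log2 fold change was 0.02 ± 0.10 (SE) with a 95% interval of -0.23 to 0.26, and its sign turned when Sham 3, SNI-NP 2 or SNI-NP 3 was left out and in limma on FPKM, a level scaled for gene length and library total.

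Sptbn1 encodes beta-II spectrin, the beta subunit of the axon shaft. Its level was 1188, 1314 and 1220 CPM in the Sham libraries and 1172, 1138 and 1211 CPM in the SNI-NP libraries. The highest value was that of Sham 2 and SNI-NP 3 lay above Sham 1. On the log2 scale its fold change was -0.08 ± 0.10 (SE), with a 95% interval of -0.32 to 0.16, and was 0.02 with offsets for gene length. For both genes the interval leaves out -0.42, the estimate for Ank2. Both intervals overlap that of Ank2 itself, -0.76 to -0.08, and the difference between the genes was not tested.

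Sptbn4, the spectrin of the node, was the least abundant of the 9 genes and the one with the widest range on the log2 scale. It stood at 72.4, 27.2 and 53.6 CPM in the Sham libraries and at 49.6, 46.2 and 42.3 CPM in the SNI-NP libraries. The Sham group held both the highest and the lowest library, Sham 1 and Sham 2, and the 3 SNI-NP libraries lay between them. The estimated log2 fold change was -0.15 ± 0.31 (SE), with a 95% interval of -0.88 to 0.58, which leaves room for a change as large as that of Ank2 in either direction. It was 0.18 without Sham 1 and -0.45 without Sham 2. Sptb, the beta spectrin of red cells, did not pass either, with a log2 fold change of 0.11 (adjusted p = 0.796 in edgeR).

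Of the paranodal genes, Cntn1 (ENSRNOG00000004438) stood at 209.9, 129 and 187 CPM in the Sham libraries and at 120.4, 133 and 125 CPM in the SNI-NP libraries. The groups overlapped, as Sham 2 lay below SNI-NP 2, and the SNI-NP libraries differed little among themselves. The mean was 175 ± 42.0 CPM (SD, n = 3) in sham rats and 126 ± 6.47 CPM (SD, n = 3) in SNI-NP rats. The log2 fold change was -0.48 ± 0.18 (SE), with a 95% interval of -0.89 to -0.06, an unadjusted p of 0.0309 and an adjusted p = 0.439 in edgeR. The call held with offsets for gene length, but not with these and a replicate block (unadjusted p of 0.0691 in edgeR) or with least-squares offsets (0.0686), and it was lost in 4 of the 6 fits that left out 1 library.

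Cntnap1, the partner of Cntn1 in the axon membrane, stood at 209.7, 129 and 214 CPM in the Sham libraries and at 147, 187 and 153 CPM in the SNI-NP libraries. Sham 2 was lowest and the other Sham libraries were highest. Its log2 fold change was -0.18 ± 0.21 (SE), with a 95% interval of -0.67 to 0.30 and an adjusted p = 0.758. Without Sham 2 it was -0.38 and passed the rule. Its annotation overlaps Ccr10, a chemokine receptor gene with its own row in the table.

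Nfasc stood at 817, 586 and 686 CPM in the Sham libraries and at 777, 599.9 and 683 CPM in the SNI-NP libraries. Each group held a high, a middle and a low library at nearly the same levels. Its log2 fold change was -0.02 ± 0.16 (SE), with a 95% interval of -0.39 to 0.35, and was 0.12 with offsets for gene length. The glial and neuronal forms of neurofascin share the row and were not separated.

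Nrcam stood at 137, 104 and 123 CPM in the Sham libraries and at 110.1, 64.5 and 93.9 CPM in the SNI-NP libraries. SNI-NP 2 was lowest, and SNI-NP 1 lay above Sham 2. The log2 fold change was -0.44 ± 0.20 (SE), a size like that of Ank2 and Cntn1, but the 95% interval of -0.92 to 0.04 reached 0 and the adjusted p = 0.478. With DESeq2 its log2 fold change was -0.45 and its unadjusted p 0.0388, which passed the rule. In all it passed in 5 of 16 alternatives, the others being the replicate block, length offsets with this block, and leaving out Sham 2 or SNI-NP 1. Without SNI-NP 2 its log2 fold change was -0.25 (unadjusted p of 0.155 in edgeR), and without Sham 1 it was -0.36 (0.147).

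**Figure D2:**
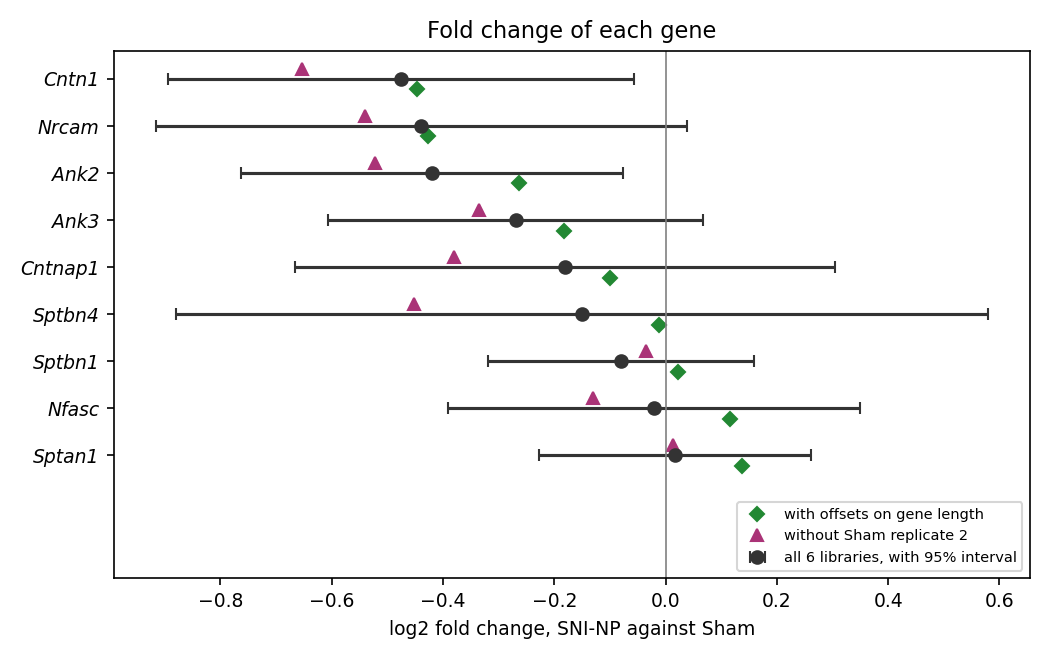
log2 fold change of SNI-NP against Sham (horizontal axis) for the 9 genes, as points with 95% intervals from all 6 libraries, with diamonds for the fit with offsets on gene length and triangles for the fit without Sham 2. The intervals of Cntn1 and Ank2 lie below 0, the offsets move Sptbn1 and Nfasc from below to above 0, and the fit without Sham 2 moves Cntn1, Nrcam, Ank2, Ank3, Cntnap1, Sptbn4 and Nfasc further below 0.

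The 9 genes did not share a single profile over the libraries. The root mean square difference between 2 genes of their log2 CPM, centred on each gene's mean, was smallest for Sptan1 and Sptbn1 at 0.10, followed by Ank3 and Nrcam at 0.14 and Ank2 and Cntn1 at 0.14, and largest for Sptbn1 and Sptbn4 at 0.47. The 2 ankyrins stood at 0.26. The lowest of the 6 libraries was Sham 2 for Sptbn4, Cntnap1 and Nfasc, SNI-NP 1 for Ank2, Sptan1 and Cntn1, and SNI-NP 2 for Ank3, Sptbn1 and Nrcam. The summed level of the 9 genes was 4842, 4316 and 4603 CPM in the Sham libraries and 4277, 4256 and 4350 CPM in the SNI-NP libraries, so that Sham 2 lay close to the SNI-NP libraries. These sums made up 0.410% to 0.484% of the counts.

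Markers of other cells moved over the libraries as well. The median centred log2 CPM of 13 neuron genes was -0.24 in Sham 2 and -0.43 in SNI-NP 1, the lowest values of the 6 libraries, and that of 11 dorsal root ganglion genes was -2.50 in SNI-NP 1. The summed level of the 13 neuron genes was 2274 to 3308 CPM in the Sham group and 1776 to 3503 CPM in the SNI-NP group, highest in SNI-NP 2. Their log2 fold changes were negative for 10 and positive for 3. Between groups, 3 of 13 neuron genes, 1 of 4 neurofilament genes and 1 of 11 oligodendrocyte genes were lower by the rule and none was higher, with medians of -0.29, -0.52 and -0.35. Of 9 erythroid genes 7 were higher, with a median of 1.10. Of 9 Schwann cell genes 1 was higher, Prx, and their summed level was 77397 to 93715 CPM in the Sham group and 89565 to 119077 CPM in the SNI-NP group. Of 11 dorsal root ganglion genes none was called, with a median of 0.04. Of 7 astrocyte genes 1 was lower, with a median of -0.20, and of 7 microglia genes none was called, with a median of -0.03. The part of these cell types in the differences of Ank2 and Cntn1 was not tested.

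**Figure D3:**
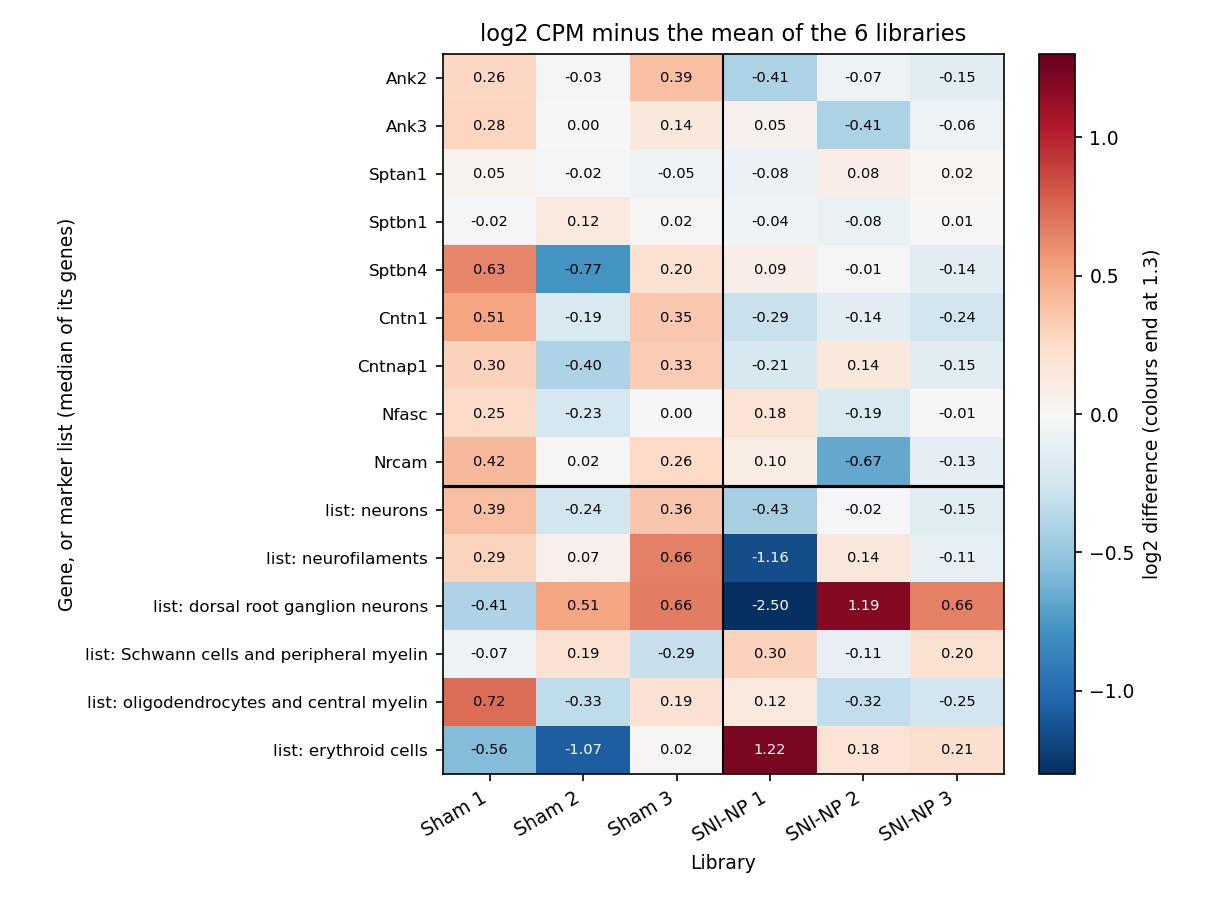
log2 CPM minus the gene's mean over the 6 libraries (colour and printed value) for the 9 genes and, below the line, the median over the genes of each marker list, with libraries in columns. Ank2, Cntn1 and the median of the neuron list share positive values in Sham 1 and Sham 3 and negative values in Sham 2 and the 3 SNI-NP libraries.

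Levels of different genes were compared in FPKM and spread over a wide range. The mean over all 6 libraries was 202 FPKM for Sptan1, 168 FPKM for Sptbn1, 71.2 FPKM for Nfasc, 41.7 FPKM for Cntn1, 33.9 FPKM for Ank2, 32.3 FPKM for Cntnap1, 31.1 FPKM for Nrcam, 27.5 FPKM for Ank3 and 5.54 FPKM for Sptbn4. The ranges over libraries were separate between Sptbn1 and Nfasc, between Nfasc and Cntn1, and between Ank3 and Sptbn4. Sptan1 lay above Sptbn1 in 6 of 6 libraries although their ranges overlapped. The levels of Cntn1, Ank2, Cntnap1, Nrcam and Ank3 overlapped from each to the next, and Cntnap1 lay above Nrcam in only 2 of 6 libraries. The node spectrin Sptbn4 thus stood below the node ankyrin Ank3 in every library, 8.28 FPKM at most against 21.1 FPKM at least.

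A gene's length can be worked out from its count, the library total and its FPKM, and a length that differs between libraries shows that the deposited FPKM did not use a single length for that gene. Sptan1, Sptbn1, Sptbn4, Cntnap1 and Nfasc kept 1 length to within a ratio of 1.0033 or less between longest and shortest. For Ank2 it ran from 8475 bases in SNI-NP 1 to 10110 bases in SNI-NP 2, a ratio of 1.19, and for Nrcam from 3124 bases in SNI-NP 2 to 3617 bases in Sham 3, a ratio of 1.16. Of 9427 genes with at least 3 FPKM in every library, 7.96% had a longest length over 5% above the shortest.

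For Ank3 the implied length was 6784 ± 70.6 bases (SD, n = 3) in sham rats and 6583 ± 23.4 bases (SD, n = 3) in SNI-NP rats. The 3 SNI-NP libraries lay below the 3 Sham libraries. The exact two-sided permutation test gave p = 0.1, the smallest value possible and the one any such separation gives, so it adds nothing to the separation. Among the 1795 genes whose longest length was over 1% above the shortest, which include Ank2, Ank3, Cntn1 and Nrcam, 6.13% had a shorter length without overlap in SNI-NP rats and 6.02% a longer one. Ank3 was the only one of those 4 to be separated in either direction. How the authors obtained the lengths is not given in the sources used here, and the cause of the variation was not tested.

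These are long transcripts, and log2 fold changes varied with length over all genes. The median log2 fold change was -0.08 in the decile of tested genes with the longest implied length, 4883 to 24170 bases, which holds 7 of the 9 genes, and -0.01 in the eighth decile, which holds Cntn1 and Nrcam. Relative to the median of its own decile, the log2 fold change was -0.47 for Cntn1, -0.43 for Nrcam, -0.33 for Ank2 and -0.18 for Ank3. The spectrins lay near the median of their decile, with 0.10 for Sptan1, 0.00 for Sptbn1 and -0.07 for Sptbn4. Cntnap1 stood at -0.10 and Nfasc at 0.06.

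**Figure D4:**
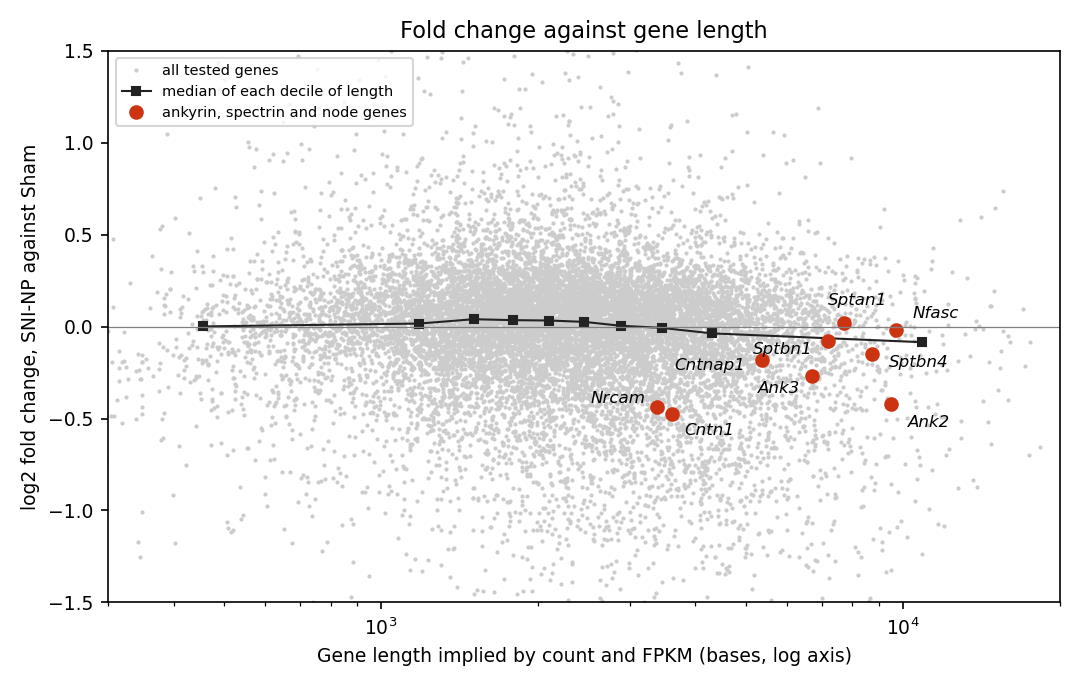
log2 fold change of SNI-NP against Sham (vertical axis) against gene length implied by count and FPKM (horizontal log axis), with all tested genes as grey points (156 lie outside the axes), the median of each decile of length as squares and the 9 genes in red. The squares run from about 0 among short genes to -0.08 in the longest decile, and Nrcam, Cntn1 and Ank2 lie furthest below them.

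Other genes of the same structures were taken as 5 lists of 63 genes in all, of which 60 were found and tested, while Sptbn5, Cntnap3b and Cntnap5a are not analysed here. By the same rule 12 of the 60 were lower, or 20.0% against 5.9% of all tested genes, and none was higher, with none past an adjusted p of 0.05 in edgeR. The log2 fold change was negative for 46 and positive for 14, with a median of -0.27. All SNI-NP libraries lay below the Sham libraries for 9 of the 60, or 15.0% against 8.15% of all tested genes. They lay above for 2, beside 10.4% of all tested genes. Without Sham 2 the number called lower was 26, beside 8.26% of all genes in that fit, and without Sham 1 it was 7, beside 4.10%. In the fit of all libraries 3 of 13 neuron marker genes were also lower, or 23.1%, and none was higher. The 5 lists were chosen with earlier results of these data known, so their share is a description only. The lists differed among themselves in their counts. None of the 14 other ankyrin and spectrin skeleton genes was called, with a median of -0.01, and the most abundant of them, Epb41l2, a protein 4.1 family member, stood at a mean of 144 FPKM with a log2 fold change of 0.22.

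Of 13 adhesion genes 3 were lower, namely Adam22, Adam23 and Cadm2, with a list median of -0.39. Adam22, a membrane protein found near potassium channels of the juxtaparanode, stood at 15.8, 14.2 and 19.8 CPM in the Sham libraries and at 5.52, 10.1 and 8.35 CPM in the SNI-NP libraries. Its groups did not overlap, and its log2 fold change was -1.06 ± 0.25 (SE) with an adjusted p = 0.331. Cadm4, a cell adhesion molecule on the glial side of the internode and the most abundant of the list at a mean of 507 FPKM, stood at a log2 fold change of 0.30 (adjusted p = 0.491). Its groups did not overlap either, with all SNI-NP libraries above the Sham libraries, but it did not pass the rule. Mag, a myelin adhesion molecule, belongs to this list and to the oligodendrocyte list.

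Of 7 genes of the nodal and perinodal matrix 2 were lower, Hapln1 and Tnr, and the log2 fold change was negative for all 7, with a median of -0.52. Hapln1, a link protein that holds hyaluronan to proteoglycans, stood at 7.86, 6.70 and 6.75 CPM in the Sham libraries and at 3.68, 3.11 and 2.14 CPM in the SNI-NP libraries. Its groups did not overlap and its log2 fold change was -1.25 ± 0.25 (SE), with an adjusted p = 0.294. Bcan, the proteoglycan brevican and the most abundant of the list at 42.8 FPKM, had a log2 fold change of -0.39 and did not pass. The matrix list as a whole was lowest in Sham 2, at a median centred log2 CPM of -0.58.

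Of 17 channel genes 4 were lower, namely Scn1a, Scn8a, Kcna1 and Kcna2, with a list median of -0.44. Scn1a, a voltage-gated sodium channel, stood at 124, 62.2 and 102 CPM in the Sham libraries and at 57.8, 31.0 and 34.9 CPM in the SNI-NP libraries. Its groups did not overlap, and its log2 fold change was -1.22 ± 0.31 (SE) with an adjusted p = 0.348. Kcna1, a potassium channel of the juxtaparanode, stood at 64.3, 55.9 and 57.2 CPM in the Sham libraries and at 43.1, 29.7 and 35.8 CPM in the SNI-NP libraries, also without overlap. Its log2 fold change was -0.71 ± 0.15 (SE) with an adjusted p = 0.307. Scn8a, the main sodium channel of mature nodes, had a log2 fold change of -0.64 ± 0.25 (SE) with an adjusted p = 0.445 in edgeR, and its groups overlapped.

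Of 9 genes of the initial segment and scaffold 3 were lower, namely Camsap2, Dlg2 and Map2, with a list median of -0.23. Camsap2, which binds the minus ends of microtubules, stood at 98.6, 92.8 and 94.3 CPM in the Sham libraries and at 73.6, 52.0 and 67.5 CPM in the SNI-NP libraries. Its groups did not overlap and its log2 fold change was -0.56 ± 0.14 (SE), with an adjusted p = 0.336. Mapre3, the most abundant of the list at 69.1 FPKM, had a log2 fold change of -0.09. Map2, a microtubule protein of dendrites, had one of -1.22 ± 0.42 (SE) with an adjusted p = 0.436 in edgeR, and its groups overlapped. Several of these genes are made by neurons, whose marker genes had a median log2 fold change of -0.29, and the part of this in the counts was not tested.

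**Figure D5:**
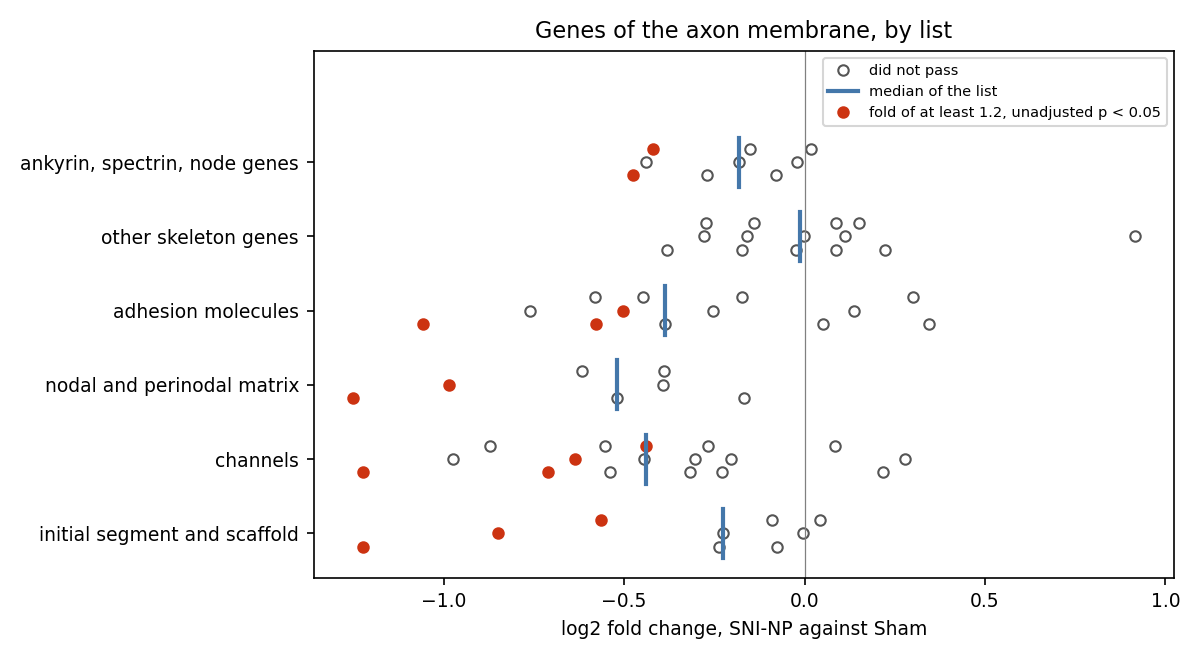
log2 fold change of SNI-NP against Sham (horizontal axis) for each tested gene of the 9 and of the 5 other lists, filled where the gene passed the rule, with a bar at the list's median. Filled points lie only below 0, 2 among the 9 genes and 12 in the other lists, and the list of other skeleton genes has none.

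The genes whose centred log2 CPM over the 6 libraries lay closest to that of Ank2, among 9425 candidates with a mean of at least 10 CPM, were Kif5c, Mif, Naa25, Map7 and Pja1. Their root mean square differences from Ank2 were 0.03, 0.06, 0.06, 0.06 and 0.06, against a median of 0.32 over the candidates. Kif5c, a neuronal kinesin heavy chain that carries cargo along axons, stood at 257, 208 and 267 CPM in the Sham libraries and at 158, 196 and 196 CPM in the SNI-NP libraries. Its 3 SNI-NP libraries lay below the 3 Sham libraries, as for Ank2. Its log2 fold change was -0.41 ± 0.14 (SE) beside -0.42 for Ank2. Over so few libraries some genes of a large table lie close to any other, and this likeness is a description only.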

How the data were processed

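Total RNA from spinal cord was sequenced by the authors, who mapped reads to a rat genome called Rat6 and kept unique matches. The submitters' processing notes name FastQC, STAR and HTSeq. The deposited table gives for each gene and library an estimated count, not normalized, and an FPKM value made by the authors. Of 22050 genes, 2018 had a count that was not whole (tolerance 0.001), and 4542 had no count. Given the counts that were not whole, it is unclear whether HTSeq made the deposited values. Counts were rounded to whole numbers. Columns were mapped to libraries by the labels.

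Library totals were 16670760 to 18151156 estimated counts. Genes were filtered with filterByExpr, scaled with TMM and tested with edgeR 4.0.16 (R 4.3.3) for SNI-NP against Sham, with no covariate, by the quasi-likelihood test, and p-values were adjusted by Benjamini-Hochberg over 14426 genes. CPM used TMM-scaled totals. A gene was called where it changed by 1.2 times or more with p below 0.05 before adjustment. FPKM were used for levels between genes and for implied length. Alternatives were DESeq2 1.42.0, limma 3.58.1 on log2(FPKM + 0.1), other size factors, other filters, offsets on gene length (loess, span 0.5), a replicate block and leaving out each library. The test was run on simulated data first.

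The members and lists were chosen with earlier results of these data known. The text names all members, the up to 5 lower and 5 higher genes of the lists with the smallest unadjusted p among called genes, the most abundant gene of each list (that of the channel list is not reported here), and the 5 genes nearest to Ank2. The other called genes of the lists, Ank1, Sptb, Mag and the marker gene Prx were named after their values were seen. Coordinates and overlaps come from RefSeq GRCr8, not from the authors' build. Replicate numbers were not used to pair libraries.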

Additional observations from a re-analysis of the deposited data

How the results depend on the processing

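Ank2, Ank3, Cntn1 and Nrcam kept a negative log2 fold change under all 16 alternatives, and no member was called higher under any of them. Genes past an adjusted p of 0.05 numbered 194 with DESeq2 against 0 in the edgeR fit, and 0 to 222 when 1 library was left out, with 222 without SNI-NP 1 and 2 without Sham 2. The 2 members called lower became 1 with offsets on gene length (Cntn1), 1 with these offsets and a replicate block (Nrcam) and 0 with least-squares offsets, an alternative chosen after seeing the data. The share of all genes called lower in these 3 fits was 6.04%, 5.82% and 4.84%. The members called lower ranged from 0 to 5 when 1 library was left out, with 0 without Sham 1 or Sham 3, 1 without SNI-NP 3 and 5 without Sham 2. The share of all genes called lower was 4.10% without Sham 1, 4.41% without Sham 3, 4.18% without SNI-NP 3 and 8.26% without Sham 2. The 12 listed genes called lower ranged from 7 to 26, and the 0 called higher ranged from 0 to 3 and were 2 with least-squares offsets. Ank2 stood at -0.11 with least-squares offsets. Signs turned for Sptan1 in limma on FPKM (-0.026) and over left-out libraries (-0.030 to 0.060). They turned for Sptbn1 at 0.022 with length offsets, 0.023 with these and the block and 0.15 with least-squares offsets, for Sptbn4 at 0.073 with offsets and block, 0.12 with least-squares offsets and -0.45 to 0.18 over left-out libraries, for Cntnap1 at 0.0068 with least-squares offsets, and for Nfasc at 0.12, 0.12 and 0.25 in these 3 fits and -0.13 to 0.093 over left-out libraries. Over all genes the split of 851 lower and 655 higher became 698 and 1168 with least-squares offsets and 1226 and 453 with limma on FPKM, and over left-out libraries it ran from 599 (without Sham 1) to 1388 (without SNI-NP 1, 9.52%) lower and from 307 (without SNI-NP 3) to 886 (without Sham 2) higher. The cause of these shifts was not tested.

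The replicate numbers share no stated animal, batch or day. Deviations of same-numbered libraries correlated at 0.214, -0.143 and 0.0538, and only replicate 1 correlated best with its own number. The deviations were taken from group means of only 3 libraries, so these values cannot settle whether the numbers pair the libraries. With the replicate block 2 members were lower, Ank2 at -0.42 and Nrcam at -0.46, Cntn1 stood at -0.45 with an unadjusted p of 0.0551 in edgeR, and 871 genes were lower and 448 higher.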
